A study of Mus musculus with 30 samples.

Results

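Transcript levels of 10 genes that detect foreign or misplaced nucleic acid, or that limit such detection, were followed in cultured mouse tail fibroblasts under 8 small molecules. The genes were taken by name from a table of 29861 genes: the sensors Ddx58, Ifih1, Dhx58, Tlr3, Zbp1 and Eif2ak2, the adaptor Mavs, and the limiters Adar, Trex1 and Samhd1. Ensembl identifiers were matched to symbols through GENCODE M21, and all 10 genes were found. All 10 also passed the filter for testing, which asked for at least 1 TPM in at least 3 libraries.

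The cells were the line CCG-HTA-1, derived from the tails of genetically heterogeneous UMHet3 mice and studied at passage 4, in medium with high glucose and without pyruvate. Each of the 8 compounds had 3 libraries and the solvent DMSO had 6, 30 in all, from RNA collected 48 hours after treatment. Donor mice were 5 to 8 weeks old, except for Dihydrorotenone replicate 1, whose label gives 8 to 11 weeks. The compounds were Antimycin A, an inhibitor of respiratory complex III, Dihydrorotenone, which belongs to the rotenoid inhibitors of complex I, Diphenyleneiodonium Cl, an inhibitor of flavin enzymes, Podofilox, which blocks tubulin assembly, Clofilium tosylate, a potassium channel blocker, Cardamonin, a plant chalcone, and the compounds labelled BerberineA and AEG 3482. Doses are not used here. Every replicate came from 1 cell line, so p-values measure the spread between libraries of that line, which may be technical.

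Cells carry receptors that bind RNA or DNA found where it should not be. Ddx58 (RIG-I) and Ifih1 (MDA5) are cytosolic RNA helicases that bind double-stranded RNA and signal through Mavs, a protein of the outer mitochondrial membrane. Dhx58 (LGP2) is a related helicase without signalling domains that tunes both. Tlr3 reads double-stranded RNA in endosomes, Zbp1 binds Z-form nucleic acid and can start necroptosis, and Eif2ak2 (PKR) halts translation on binding double-stranded RNA. Adar edits adenosine in double-stranded RNA, Trex1 degrades cytosolic DNA and Samhd1 hydrolyses deoxynucleotides; each keeps the cell's own nucleic acid from setting off these receptors. Many genes of this group are themselves raised by type I interferon, which acts through factors that include Stat2 and Irf9 at a sequence called the interferon-stimulated response element. RNA and DNA that leave damaged mitochondria can be ligands of the same receptors.

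The start regions of the genes are shown first. RefSeq promoters of the build GRCm38.p6, from 250 bases before to 50 bases after each start site, were given for 8 of the 10 genes with 11 start sites, and none was given for Dhx58 and Zbp1. The core of the interferon-stimulated response element, GAAANNGAAA on either strand, occurred at 3 of these 11 start sites, in 3 genes, against 3.44% of all 32851 promoters of the table. In the following 30-base windows, written 5′ to 3′ on the gene's own strand, capitals mark that match.
Ddx58: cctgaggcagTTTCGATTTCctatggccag
Ifih1: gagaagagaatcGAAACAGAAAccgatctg
Eif2ak2: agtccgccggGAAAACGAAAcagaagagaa
The Ddx58 window lies at chr4:40239804-40239833, minus strand, and its match, read on the opposite strand, begins 2 bases downstream of the start base. The Ifih1 window lies at chr2:62646206-62646235, minus strand, with the match 32 bases downstream of the start base. The Eif2ak2 window lies at chr17:78882535-78882564, minus strand, with the match 18 bases downstream. These matches are in transcribed sequence close to the start site. They describe letters and do not show that a factor was bound.

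A second motif, TTCNNNGAA, is the core of the gamma-interferon activated site and reads the same on both strands, so its matches carry no orientation. It was found in Samhd1, in Eif2ak2 and at 1 of the 3 Adar start sites, and in 8.30% of all promoters. Capitals mark this second motif in the next pair of windows.
Samhd1: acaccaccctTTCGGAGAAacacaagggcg
Eif2ak2: ctgcagagctTTCCCAGAAtggaagccagg
The Samhd1 window is at chr2:157135312-157135341, minus strand, with the match 235 bases before the start base, and the Eif2ak2 window is at chr17:78882731-78882760, minus strand, with the match 178 bases before it. For Mavs and Tlr3, which differed most from the other genes in the expression data, neither motif occurred in the 300 bases. The last 60 bases before their start sites are given below, with no capitals because there was no match.
Mavs: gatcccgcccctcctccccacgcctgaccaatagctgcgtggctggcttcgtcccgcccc
Tlr3: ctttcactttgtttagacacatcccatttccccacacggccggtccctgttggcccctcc
The Mavs stretch is at chr2:131234003-131234062, plus strand, and the Tlr3 stretch at chr8:45410381-45410440, minus strand. The absence of a match says only that these letters are not in the window. Trex1, whose levels followed those of Ddx58 over the 30 libraries (Pearson r = 0.962), also had neither motif at its 2 start sites. Whether the motifs bear on the levels was not tested.

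Levels are in TPM, a unit scaled to a fixed total per library that gives a share of each library's transcripts corrected for transcript length. The depth of the libraries is unknown, since TPM keeps no read numbers. Fold changes are on the log2(TPM + 1) scale, with the standard error from limma after the ± sign, and a gene is said to rise or fall where its limma p, adjusted over all 13644 genes tested, was below 0.05. Library numbers ran consecutively within groups, so a library batch and a treatment cannot be told apart. The 8 fibroblast markers examined, from Col1a1 to Pdgfrb, were at 37.2 TPM or above in every library. Their summed level was 7223 to 8393 TPM in DMSO, 4170 to 4826 in Antimycin A and 2405 to 3460 in Cardamonin. Of 10 leukocyte markers, Ptprc and Cd3e reached at most 0.876 and 0.0340 TPM. Over all libraries Cd68 measured 11.5 to 41.4 TPM, Adgre1 1.62 to 12.1 and Csf1r 0.698 to 3.46. The leukocyte list, of which 5 genes (chiefly Lyz2 and Cd14) passed 1 TPM in some library, summed to 192 to 252 TPM in DMSO, to 102 to 115 in Antimycin A and to 165 to 189.9 in Cardamonin, and so was lower than DMSO in both. Krt5 and Myod1, markers of keratinocytes and muscle, were at 0 throughout, while Krt10, of the keratinocyte list, measured 1.02 to 2.38 TPM.

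The summed levels of a pair of short marker lists differed between groups, in the direction of the 10 genes in some compounds and not in others. The 4 melanocyte markers summed to 4.54 to 6.93 TPM in DMSO, 16.1 to 18.6 in Antimycin A, 1.27 to 1.83 in Cardamonin and 1.55 to 2.22 in AEG 3482. In the other compounds in which some of the 10 genes rose and none fell they summed to 12.5 to 15.8 (Diphenyleneiodonium Cl), 12.1 to 13.1 (BerberineA), 9.71 to 14.5 (Clofilium tosylate) and 12.0 to 12.1 TPM (Dihydrorotenone). In Podofilox, where 9 of the 10 genes fell, the sum was 6.52 to 7.90 TPM, not below DMSO. Of the 4, Mlana and Pmel passed 1 TPM, and Dct was at most 0.0468 and Tyr at most 0.123 TPM. The 4 endothelial markers summed to 5.42 to 8.71 TPM in DMSO, 1.09 to 1.18 in Cardamonin and 1.63 to 1.77 in AEG 3482, and lay inside the DMSO range in Podofilox (5.94 to 6.64) and Antimycin A (6.20 to 7.39). Of them only Tek passed 1 TPM, with Cdh5 at most 0.0300 TPM. Their part in the results was not tested. In bulk RNA, fewer cells of a type and less RNA per cell cannot be told apart.

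The compounds fell into those with higher and those with lower levels of the 10 genes than DMSO. Antimycin A raised 8 of the 10 genes and lowered 0, while over all genes tested 21.8% were called higher and 15.5% lower. Diphenyleneiodonium Cl raised the same 8 genes and lowered 0, against 14.0% and 11.7% of all genes. BerberineA also raised these 8 and lowered 0, against 12.6% higher and 9.16% lower. The genes outside these sets of 8 were Mavs and Tlr3 each time. Clofilium tosylate raised 6 and lowered 0 (10.9% and 12.5% of all genes), and Dihydrorotenone raised 2, Dhx58 and Zbp1, and lowered 0 (4.95% and 9.43%).

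In the other direction, Cardamonin lowered 9 of the 10 genes, all but Mavs, and raised 0, where 33.0% of all genes were called lower and 37.3% higher. Podofilox lowered the same 9 genes and raised 0 (20% lower and 26.2% higher over all genes). AEG 3482 lowered 6 and raised 1, Mavs, where 26.8% of all genes were lower and 41.3% higher. The median log2 fold change of the 10 genes ran from -1.74 in Cardamonin, -0.89 in Podofilox and -0.78 in AEG 3482 to 0.63 in Antimycin A and 0.64 in Diphenyleneiodonium Cl. Over all genes tested the medians in these 5 compounds were 0.03, 0.04, 0.10, 0.03 and 0.02. In each direction in which no gene passed limma's adjusted threshold, the count at an unadjusted p below 0.05 was also 0. The 8 comparisons share the DMSO libraries.

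**Figure D1:**
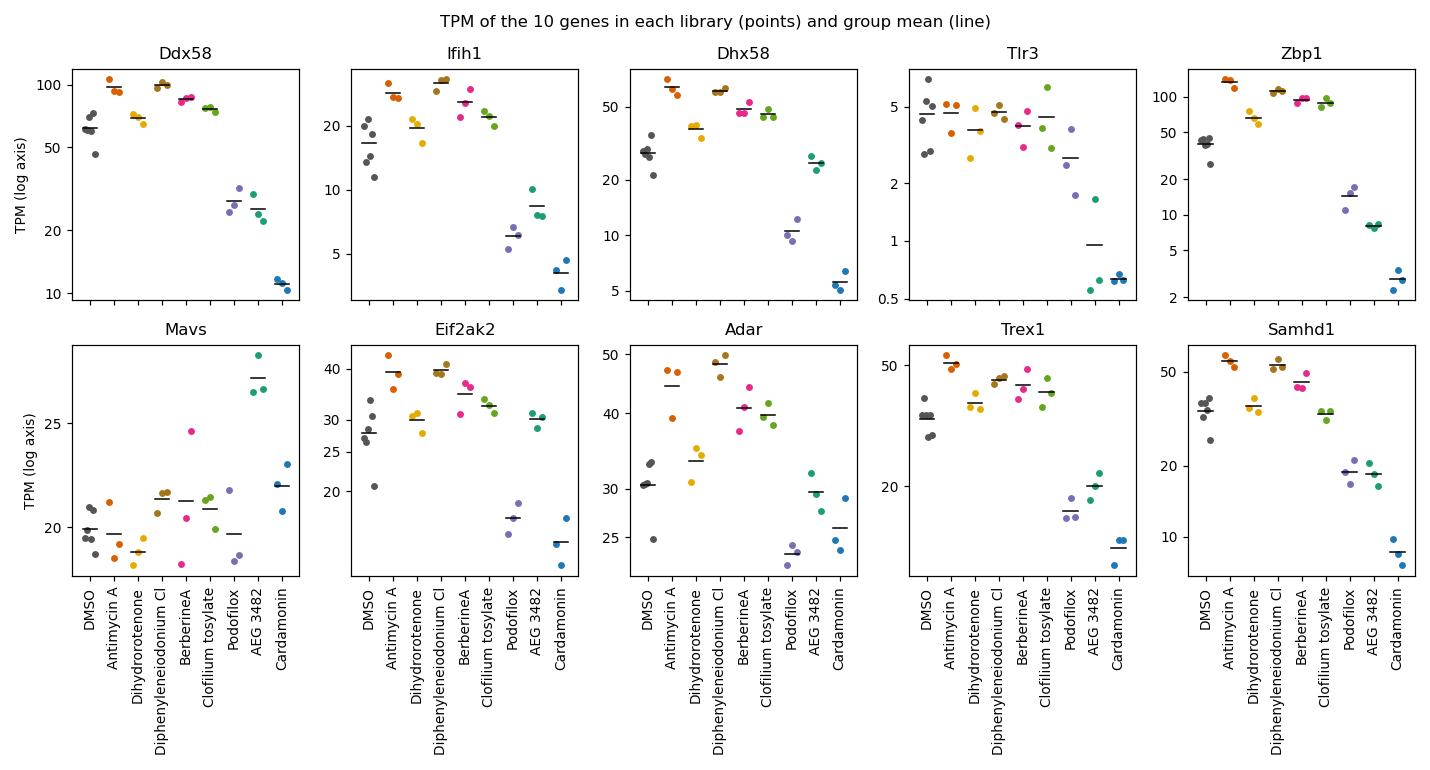
TPM of each of the 10 genes (log axis, 1 panel a gene) in each library, with 6 DMSO points and 3 points per compound; the horizontal line is the group mean. Zbp1 spans 2.33 to 141 TPM and separates every compound from DMSO, while Mavs stays between 18.4 and 29.0 TPM.

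Leaving out 1 library moved the count by over 1.5 times in 2 compounds and by a smaller factor in others. Clofilium tosylate raised 3 genes, not 6, without its replicate 2 or without its replicate 3, and 4 without DMSO replicate 6. Dihydrorotenone raised 1 gene, not 2, without its replicate 2. In BerberineA, Eif2ak2 and Trex1 were both lost without its replicate 3, and 6 of its 8 calls held under every alternative. DMSO replicate 6 was the lowest of its group in 8 of the 10 genes, and Antimycin A replicate 1 the highest of its group in 10 of 10. Among the comparisons with DMSO, another scaling between libraries changed calls of the 10 genes in AEG 3482: median-ratio scaling moved the median of all genes from 0.10 to -0.0079, and 8 of the 10 genes then passed as lower, the additional pair being Dhx58 (from -0.16 to -0.28) and Adar (from -0.04 to -0.15). Mavs was still higher. The share of called genes that were higher, over all genes, went under the same scaling from 60.7% to 49.4% in AEG 3482, from 34.4% to 50.7% in Dihydrorotenone (47.2% with quantile normalization) and from 57.9% to 47.7% in BerberineA.

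Zbp1 (ENSMUSG00000027514, chr2:173206612-173218923, minus strand) had the widest range of the 10 genes, 46.5-fold between the highest and the lowest group mean. It measured 27.1 to 44.8 TPM in the 6 DMSO libraries, with a median of 41.3. Levels were 141, 138 and 119 TPM in Antimycin A, 108, 116 and 112 in Diphenyleneiodonium Cl, 88.1, 97.7 and 97.4 in BerberineA and 81.3, 97.9 and 88.0 in Clofilium tosylate. Dihydrorotenone, at 75.4, 65.4 and 58.5 TPM, was also wholly above DMSO. The remaining compounds were wholly below it, with 11.1, 15.1 and 17.1 TPM in Podofilox, 8.17, 7.70 and 8.38 in AEG 3482 and 2.33, 3.40 and 2.82 in Cardamonin. It was the gene, of the 10, for which no compound's libraries overlapped the DMSO range. Zbp1 rose by 1.73 ± 0.13 in Antimycin A (limma adjusted p = 6.44e-11) and by 0.74 ± 0.13 in Dihydrorotenone (adjusted p = 0.000269), and fell by 3.39 ± 0.13 in Cardamonin (adjusted p = 5.28e-18). Its group means followed the order Antimycin A, Diphenyleneiodonium Cl, BerberineA, Clofilium tosylate, Dihydrorotenone, DMSO, Podofilox, AEG 3482 and Cardamonin, and BerberineA and Clofilium tosylate were the neighbours whose libraries overlapped. One of the DMSO libraries, replicate 6, stood below the other 5 at 27.1 TPM.

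Ddx58 (ENSMUSG00000040296, chr4:40203773-40239828, minus strand), the RNA helicase RIG-I, measured 46.4 to 73.1 TPM in the 6 DMSO libraries, with a median of 61.04. Cardamonin gave the lowest values, 11.8, 11.2 and 10.4 TPM, or 0.180 times the DMSO mean. AEG 3482 gave 30.0, 23.9 and 22.2 TPM and Podofilox 24.6, 26.4 and 32.1. These 3 groups were each wholly below DMSO, and the last pair overlapped each other. Ddx58 fell by 2.36 ± 0.10 in Cardamonin, 1.25 ± 0.10 in AEG 3482 and 1.13 ± 0.10 in Podofilox on the log2 scale (adjusted p = 9.68e-17, 5.54e-11 and 1.39e-09). On the upper side the values were 96.4, 103 and 99.3 TPM in Diphenyleneiodonium Cl and 106, 92.9 and 91.7 in Antimycin A, which overlapped each other and rose by 0.69 ± 0.10 and 0.65 ± 0.10. BerberineA, at 82.7, 85.7 and 87.6 TPM, rose by 0.47 ± 0.10, and Clofilium tosylate, at 76.8, 78.4 and 73.6, by 0.31 ± 0.10; both were wholly above DMSO. The Clofilium tosylate call (adjusted p = 0.0287) was lost without DMSO replicate 6 or without any 1 of its own libraries. Dihydrorotenone, at 72.6, 69.9 and 64.8 TPM, overlapped DMSO with a difference of 0.17 (95% interval -0.04 to 0.38).

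Ifih1 (ENSMUSG00000026896, chr2:62595798-62646255, minus strand), the helicase MDA5, was less abundant than Ddx58 on the TPM scale, which is corrected for length. It measured 11.4 to 21.4 TPM in the 6 DMSO libraries, with a median of 16.4. The lowest libraries were those of Cardamonin, at 4.20, 3.40 and 4.66 TPM, followed by Podofilox, at 5.29, 6.67 and 6.15, and AEG 3482, at 10.0, 7.63 and 7.52. Those 3 groups lay below every DMSO library and did not overlap one another. Ifih1 fell by 1.76 ± 0.15, 1.29 ± 0.15 and 0.88 ± 0.15 in them (adjusted p = 5.03e-11, 6.18e-08 and 8.51e-06). Unlike for Ddx58, the libraries of Podofilox were here wholly below those of AEG 3482. It rose by 0.93 ± 0.15 in Diphenyleneiodonium Cl (29.0, 32.8 and 33.1 TPM), by 0.78 ± 0.15 in Antimycin A (31.5, 27.2 and 26.8 TPM) and by 0.63 ± 0.15 in BerberineA (21.9, 25.5 and 29.8 TPM). Clofilium tosylate, at 23.5, 22.2 and 19.8 TPM, overlapped DMSO and rose by 0.41 ± 0.15 (adjusted p = 0.0411), a call lost without any 1 of its libraries and without DMSO replicate 2, 4 or 6. In Dihydrorotenone the difference was 0.25 (95% interval -0.05 to 0.55), with libraries at 21.5, 20.4 and 16.5 TPM inside the DMSO range or just above it.

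Dhx58 (ENSMUSG00000017830, chr11:100694884-100704271, minus strand), the helicase LGP2, showed the largest changes of the 3 helicases in the compounds that raised them. An antisense gene, Dhx58os, overlaps it, and whether the counting used strand is not stated, so reads of the pair may not have been told apart. Dhx58 measured 21.3 to 34.9 TPM in the 6 DMSO libraries, with a median of 28.0. Antimycin A gave 70.5, 62.3 and 58.0 TPM and Diphenyleneiodonium Cl 60.3, 59.8 and 62.8, with rises of 1.16 ± 0.10 and 1.11 ± 0.10 (adjusted p = 2.06e-09 and 1.44e-08). BerberineA, at 46.1, 46.3 and 52.9 TPM, and Clofilium tosylate, at 43.6, 48.5 and 43.7, were also wholly above DMSO. In Dihydrorotenone the libraries were at 39.0, 39.7 and 33.9 TPM, and the rise of 0.42 ± 0.10 (adjusted p = 0.00718) passed although 1 library lay below the highest DMSO library. That call sat at the threshold without Dihydrorotenone replicate 2 (adjusted p = 0.05002).

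Among the compounds that lowered the other helicases, Dhx58 fell by 2.13 ± 0.10 in Cardamonin (5.35, 5.07 and 6.37 TPM) and by 1.33 ± 0.10 in Podofilox (10.0, 9.27 and 12.2 TPM). AEG 3482 differed from these, with libraries at 27.0, 22.5 and 24.7 TPM inside the DMSO range and a difference of -0.16 (95% interval -0.38 to 0.05, adjusted p = 0.172). Without DMSO replicate 6 the difference in AEG 3482 was -0.24 and passed (adjusted p = 0.0264).

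Tlr3 (ENSMUSG00000031639, chr8:45395665-45411080, minus strand), the endosomal receptor, was the least abundant of the 10 genes and the one with the widest relative scatter. It measured 2.83 to 6.97 TPM in the 6 DMSO libraries, with a median of 4.65. An antisense gene, Gm45542, overlaps it. Cardamonin libraries held 0.615, 0.669 and 0.627 TPM and AEG 3482 libraries 0.558, 1.66 and 0.626 TPM, all below every DMSO library. Tlr3 fell by 1.72 ± 0.23 in Cardamonin (adjusted p = 2.18e-07) and by 1.51 ± 0.23 in AEG 3482 (adjusted p = 1.9e-06), which at these low levels understates the ratio of TPM, 0.140 and 0.208 times DMSO. Podofilox libraries, at 2.49, 3.84 and 1.74 TPM, overlapped DMSO, and the fall of 0.58 ± 0.23 (adjusted p = 0.0367) did not pass without Podofilox replicate 1 or 3 or without DMSO replicate 3, 4 or 6. No compound raised Tlr3. Its differences in Antimycin A, Diphenyleneiodonium Cl, BerberineA, Clofilium tosylate and Dihydrorotenone were 0.06, 0.08, -0.13, -0.03 and -0.20, with libraries between 2.69 and 6.36 TPM that overlapped DMSO. The 95% interval in Antimycin A was -0.41 to 0.52 and held the 0.49 of Eif2ak2 in that compound.

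Mavs (ENSMUSG00000037523, chr2:131234063-131248025, plus strand), the adaptor through which Ddx58 and Ifih1 signal, was the steadiest of the 10 genes. It measured 18.9 to 20.9 TPM in the 6 DMSO libraries, with a median of 19.7. AEG 3482 libraries, at 26.8, 29.0 and 26.9 TPM, lay above all others of the study, and Mavs rose there by 0.45 ± 0.06 (adjusted p = 8.03e-07). That rise passed under every alternative tried, including median-ratio scaling, where it was 0.33. In the other 7 compounds the libraries overlapped DMSO. The differences there ran from -0.07 in Dihydrorotenone to 0.13 in Cardamonin, and the 95% intervals of the latter (-0.0034 to 0.26) and of Antimycin A (-0.15 to 0.12) hold no change as large as the 0.47 of Ddx58 in BerberineA. Cardamonin libraries held 21.9, 20.7 and 22.9 TPM and Antimycin A libraries 21.1, 18.7 and 19.3 TPM.

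Eif2ak2 (ENSMUSG00000024079, chr17:78852564-78882573, minus strand), the kinase PKR, moved less than the helicases. The gene overlaps Gm26637 and n-R5s29 on the opposite strand and shares 8.16% of its 31-base words with other genes, chiefly Gm26637. Eif2ak2 measured 20.6 to 33.5 TPM in the 6 DMSO libraries, with a median of 27.7. The lowest values were in Cardamonin, 14.8, 13.1 and 17.2 TPM, and Podofilox, 15.7, 17.2 and 18.7 TPM, which were wholly below DMSO with falls of 0.84 ± 0.10 and 0.65 ± 0.10 (adjusted p = 4.76e-08 and 7.78e-06). In AEG 3482 the libraries held 31.2, 28.6 and 30.5 TPM, inside the DMSO range, with a difference of 0.13 (95% interval -0.08 to 0.33). Diphenyleneiodonium Cl, at 39.1, 38.8 and 41.0 TPM, and Antimycin A, at 43.2, 35.6 and 38.8, were wholly above DMSO and rose by 0.51 ± 0.10 and 0.49 ± 0.10. BerberineA (30.9, 36.8 and 36.1 TPM) overlapped DMSO and rose by 0.32 ± 0.10 (adjusted p = 0.0231), which did not pass without BerberineA replicate 2 or 3. Clofilium tosylate, at 33.8, 32.6 and 31.1 TPM, and Dihydrorotenone, at 30.6, 31.1 and 27.8, overlapped DMSO with differences of 0.23 and 0.11 (adjusted p = 0.099 and 0.511); the first of these passed without DMSO replicate 4.

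**Figure D2:**
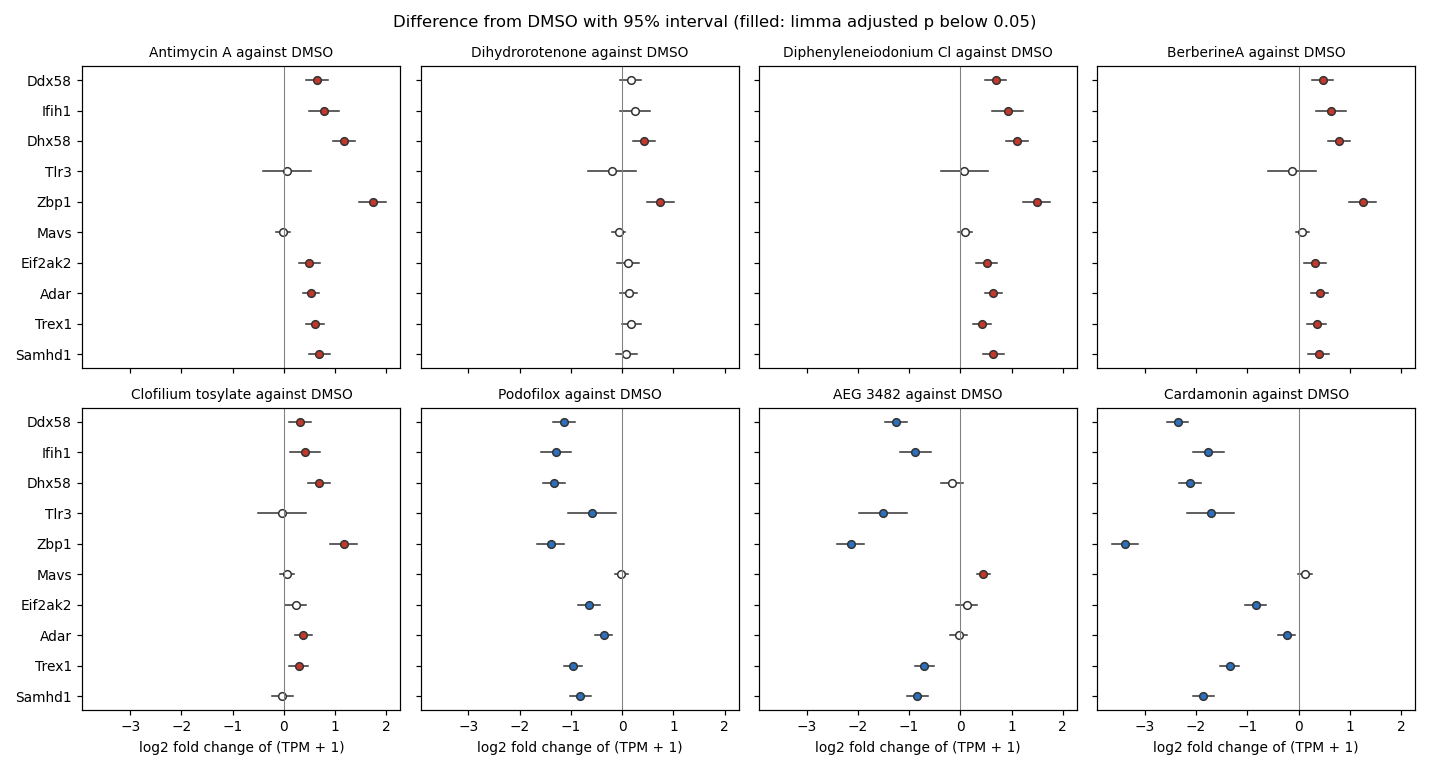
Log2 fold change of (TPM + 1) against DMSO (x axis) with 95% limma interval for each of the 10 genes, 1 panel a compound; filled points have an adjusted p below 0.05. Points lie to the right in Antimycin A, Diphenyleneiodonium Cl and BerberineA apart from Tlr3 and Mavs, and to the left in Cardamonin and Podofilox apart from Mavs.

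Samhd1 (ENSMUSG00000027639, chr2:157097533-157135265, minus strand), the deoxynucleotide hydrolase, had the largest range of the 3 limiters, 6.42-fold between group means. It measured 25.7 to 38.7 TPM in the 6 DMSO libraries, with a median of 35.7. Cardamonin libraries held 9.85, 8.50 and 7.57 TPM, AEG 3482 libraries 20.6, 18.4 and 16.5 and Podofilox libraries 18.8, 16.7 and 21.1. All 3 groups were wholly below DMSO, and the gene fell by 1.86 ± 0.10, 0.84 ± 0.10 and 0.82 ± 0.10 (adjusted p = 7.63e-15, 4.21e-08 and 2.01e-07). Antimycin A (58.8, 55.4 and 52.1 TPM), Diphenyleneiodonium Cl (51.5, 56.6 and 52.3 TPM) and BerberineA (43.3, 42.7 and 49.4 TPM) were wholly above DMSO, with rises of 0.69 ± 0.10, 0.64 ± 0.10 and 0.40 ± 0.10. Clofilium tosylate, which raised Adar and the helicases, held 34.1, 31.1 and 34.0 TPM, with a difference of -0.04 (95% interval -0.24 to 0.17), and Dihydrorotenone held 35.2, 38.7 and 33.8 TPM, with a difference of 0.08. Both overlapped DMSO.

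Adar (ENSMUSG00000027951, chr3:89715022-89753446, plus strand), the RNA editing enzyme, spanned 2.05-fold between the highest and the lowest group mean, less than any of the 10 genes but Mavs. The gene overlaps Chrnb2 on the opposite strand and shares 15.38% of its 31-base words with other genes, chiefly that one. It measured 24.8 to 33.2 TPM in the 6 DMSO libraries, with a median of 30.7. It was wholly above DMSO in Diphenyleneiodonium Cl (48.6, 45.9 and 49.9 TPM), Antimycin A (47.2, 39.2 and 46.7 TPM), BerberineA (37.4, 41.0 and 44.1 TPM) and Clofilium tosylate (39.4, 41.6 and 38.3 TPM), with rises of 0.65 ± 0.08, 0.53 ± 0.08, 0.41 ± 0.08 and 0.38 ± 0.08. Podofilox, at 22.4, 24.2 and 23.6 TPM, was wholly below DMSO, a fall of 0.36 ± 0.08 (adjusted p = 0.000517). In Cardamonin, where the other 2 limiters had their largest falls, Adar held 24.7, 23.8 and 29.0 TPM, overlapped DMSO and fell by 0.23 ± 0.08 (adjusted p = 0.0123), a call lost without Cardamonin replicate 1 or 2. AEG 3482 libraries, at 31.9, 29.4 and 27.6 TPM, differed by -0.04 (95% interval -0.20 to 0.13), and Dihydrorotenone libraries, at 30.8, 35.1 and 34.2 TPM, by 0.13. Both groups overlapped DMSO.

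Trex1 (ENSMUSG00000049734, chr9:109057933-109059734, minus strand), the DNA exonuclease, overlaps Atrip on the same strand. As much as 97.58% of its 31-base words also occur in another gene's transcripts, chiefly Atrip, so how reads were divided between the pair is uncertain. Trex1 measured 29.0 to 39.0 TPM in the 6 DMSO libraries, with a median of 34.2. It held 11.0, 13.3 and 13.3 TPM in Cardamonin, 15.8, 18.3 and 15.8 in Podofilox and 18.0, 20.03 and 22.0 in AEG 3482, all below every DMSO library, and fell by 1.34 ± 0.09, 0.96 ± 0.09 and 0.71 ± 0.09 (adjusted p = 6.27e-13, 2.2e-09 and 1.3e-07). Antimycin A, at 54.1, 48.7 and 50.5 TPM, and Diphenyleneiodonium Cl, at 43.3, 45.3 and 46.1 TPM, were wholly above DMSO, with rises of 0.61 ± 0.09 and 0.42 ± 0.09. BerberineA (38.8, 41.7 and 48.5 TPM) and Clofilium tosylate (36.6, 45.6 and 40.6 TPM) overlapped DMSO by 1 library each and rose by 0.36 ± 0.09 and 0.29 ± 0.09. The first of these calls was lost without BerberineA replicate 3, the second without Clofilium tosylate replicate 2 or 3. Dihydrorotenone held 36.6, 40.6 and 36.0 TPM and differed by 0.18 (95% interval -0.01 to 0.36).

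Atrip, which encodes a partner of the DNA damage kinase ATR, did not share this pattern. It lay between 9.39 and 15.6 TPM over the 30 libraries. Its differences from DMSO were 0.02 in Antimycin A, -0.05 in Cardamonin and -0.16 in Podofilox, and it passed in AEG 3482 alone of the 8 compounds, where it fell by 0.24 (adjusted p = 0.0287). That call was lost without AEG 3482 replicate 2 or DMSO replicate 4. Whether reads of 1 gene were counted to the other in part was not tested.

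**Figure D3:**
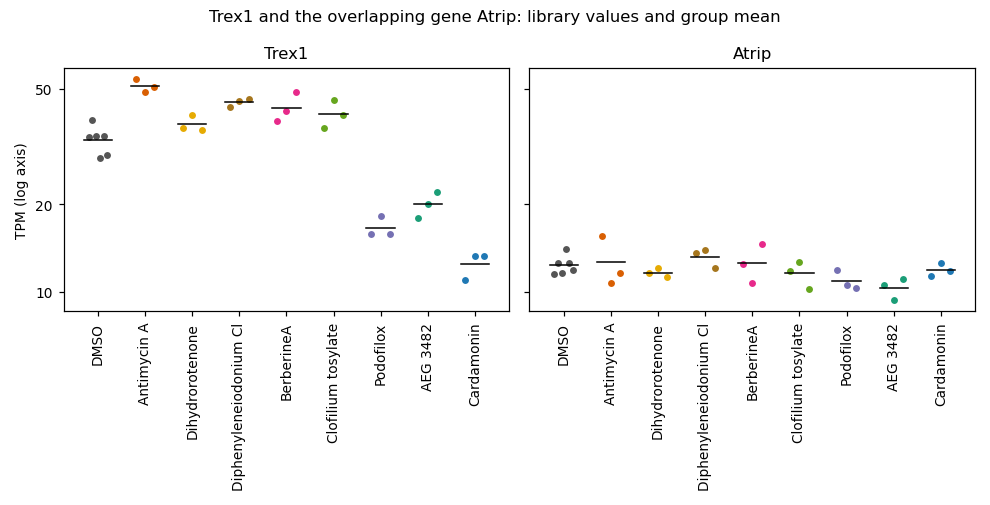
TPM (log axis) of Trex1 and of Atrip, the gene that overlaps it, in each library, with the group mean as a line. Trex1 runs from 11.0 TPM in Cardamonin to 54.1 TPM in Antimycin A, whereas Atrip stays between 9.39 and 15.6 TPM in every group.

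Compounds were then set against each other directly. Antimycin A and Dihydrorotenone both act on the respiratory chain, at complex III and complex I, and were compared at the doses used. Against Dihydrorotenone, Antimycin A had 8 of the 10 genes higher and 0 lower, where 11.6% of all genes were called higher and 3.91% lower. Zbp1 was higher by 0.99 ± 0.15 (adjusted p = 2.96e-05), Dhx58 by 0.74 ± 0.12 and Samhd1 by 0.61 ± 0.11, and the libraries of the 2 compounds did not overlap in these genes. Trex1, Ddx58 and Adar were higher by 0.43 ± 0.10, 0.48 ± 0.12 and 0.40 ± 0.09. The differences in Ifih1 (0.53, adjusted p = 0.0312) and Eif2ak2 (0.38, adjusted p = 0.0255) did not pass under median-ratio or quantile scaling, Ifih1 also not without any 1 library of either compound other than Dihydrorotenone replicate 1, and Eif2ak2 not without Antimycin A replicate 1 or 3 or Dihydrorotenone replicate 1 or 3. Mavs differed by 0.05 (95% interval -0.10 to 0.20) and Tlr3 by 0.25 (95% interval -0.29 to 0.79). Of all called genes 74.8% were higher in Antimycin A, and 52.1% after median-ratio scaling or 51.5% after quantile normalization.

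Diphenyleneiodonium Cl, which inhibits flavin enzymes, complex I among them, was also set against Dihydrorotenone. It had 6 of the 10 genes higher and 0 lower, where few genes differed in all, 3.11% higher and 0.572% lower. The largest differences were in Zbp1 (0.75 ± 0.15, adjusted p = 0.0035), Dhx58 (0.69 ± 0.12) and Ifih1 (0.68 ± 0.17). Samhd1, Adar and Ddx58 were higher by 0.56 ± 0.11, 0.52 ± 0.09 and 0.52 ± 0.12. Eif2ak2 (0.40, adjusted p = 0.0546) and Trex1 (0.25, adjusted p = 0.219) did not pass. The count was 4 without Dihydrorotenone replicate 3 or without Diphenyleneiodonium Cl replicate 2, when Ddx58 and Ifih1 were lost, and 5 without Diphenyleneiodonium Cl replicate 3, when Ifih1 was. The share of called genes that were higher was 84.5%, or 67.4% after median-ratio scaling and 64.7% after quantile normalization.

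Cardamonin and AEG 3482, the compounds that changed the most genes, were also compared, and both lowered most of the 10. Cardamonin had 8 genes lower than AEG 3482 and 0 higher, against 32.7% lower and 22.6% higher of all genes. The gap was widest in Dhx58, at 5.60 ± 0.688 TPM (SD, n = 3) in Cardamonin and 24.7 ± 2.21 TPM in AEG 3482, a difference of -1.96 ± 0.12 (adjusted p = 6.74e-13). Eif2ak2, at 15.0 ± 2.03 against 30.1 ± 1.36 TPM, differed by -0.96, and Mavs, at 21.8 ± 1.09 against 27.5 ± 1.24 TPM, by -0.32. Zbp1, Ddx58, Samhd1, Ifih1 and Trex1 were lower in Cardamonin by 1.25, 1.11, 1.02, 0.88 and 0.64. Tlr3, which both compounds lowered, differed by -0.21 (95% interval -0.74 to 0.33), and Adar by -0.19 (adjusted p = 0.075), which passed without Cardamonin replicate 3 or without AEG 3482 replicate 3. Higher genes were 40.9% of those called, or 51.2% after quantile normalization.

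**Figure D4:**
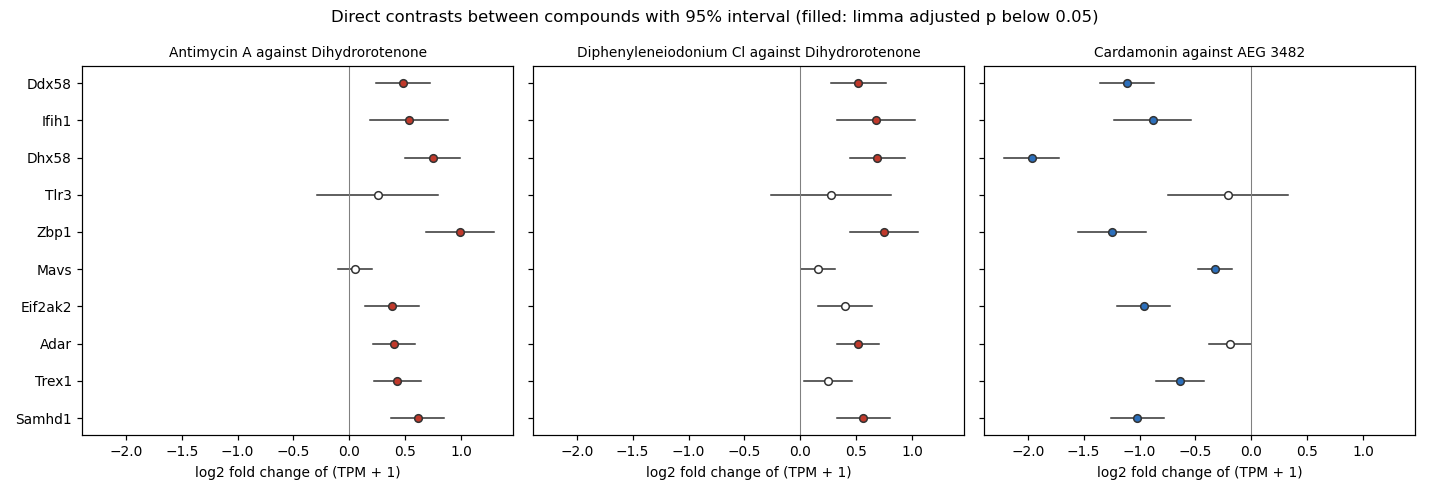
Log2 fold change of (TPM + 1) with 95% limma interval for the 10 genes in the 3 direct contrasts between compounds; filled points have an adjusted p below 0.05. In the first 2 panels all points lie right of 0 (higher than in Dihydrorotenone), and in the third all lie left, with Dhx58 at -1.96.

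Across the 30 libraries the genes also resembled one another in level. The highest Pearson correlation of log2(TPM + 1) between 2 of the 10 genes was 0.983, for Ddx58 and Samhd1, followed by Ddx58 and Zbp1 at 0.983 and Ddx58 and Ifih1 at 0.969. Mavs stood apart, with correlations from -0.51 (with Tlr3) to 0.053 (with Eif2ak2). The libraries of a compound are not independent points, so these values are descriptive. Outside the set, among the 2 tested genes most like each member over the 30 libraries were H2-M3 (r = 0.994) and Gbp3 (r = 0.993) for Zbp1, Parp14 (r = 0.991) and Gbp7 (r = 0.990) for Ddx58, Parp9 (r = 0.983) for Ifih1 and Trim21 (r = 0.991) and Irf9 (r = 0.989) for Dhx58. The list went on with Samd9l (r = 0.984) and Dtx3l (r = 0.980) for Samhd1, Lgals3bp (r = 0.978) for Trex1, Tor3a (r = 0.972) and Rnf114 (r = 0.947) for Adar and Gm6548 (r = 0.972) and Trim12c (r = 0.970) for Eif2ak2. Tlr3 was most like Echdc2 (r = 0.909) and Camk1 (r = 0.907), and Mavs most like Scap (r = 0.921) and Dgcr2 (r = 0.910).

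The other arms of nucleic acid sensing were examined through lists of named genes. The oligoadenylate synthetases make a short messenger on binding double-stranded RNA, and 10 genes of this arm were tested. Of these, 8 rose in Antimycin A and 7 in Diphenyleneiodonium Cl, against 21.8% and 14.0% of all genes. The list medians were 1.32 and 1.28 (all-gene medians 0.03 and 0.02). BerberineA raised 8 and Clofilium tosylate 7, against 12.6% and 10.9% of all genes. Oas2 rose by 2.02, 2.06, 1.18 and 1.22 in these 4 compounds, and Oas1a by 1.65, 1.49, 1.09 and 1.07. In Dihydrorotenone 5 rose, Oas2 by 0.94, and 1 fell, against 4.95% higher and 9.43% lower of all genes. The gene that fell was Abce1, which was named here after its values were seen. That call was lost without Dihydrorotenone replicate 1 or 2 or DMSO replicate 2, 3 or 4. Cardamonin and Podofilox each lowered 9 genes and raised 1, again Abce1. Of all genes, 33.0% were lower and 37.3% higher in Cardamonin, and 20% and 26.2% in Podofilox. AEG 3482 lowered 8, Abce1 among them, where 26.8% of all genes were lower. Oasl2 fell by 3.91 in Cardamonin, 2.11 in Podofilox and 1.75 in AEG 3482. Some genes of this list were near the filter of 1 TPM. Oas2 held 0.572 to 1.63 TPM in DMSO. Oas3 held 0.532 to 0.741 TPM in DMSO and so passed the filter only through other groups, which means its calls lend these counts no weight. With a minimum mean of 5 TPM fewer genes of this list were tested, and 2 to 4 rose in the 5 compounds that raised the arm, while 4 or 5 fell in the other 3. Several Oas genes are near copies, so the division of reads among them is uncertain.

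The cytosolic DNA sensors did not move as a block. Cgas, the enzyme that turns cytosolic DNA into a second messenger, went opposite to the RNA sensors in the compounds that lowered them: it rose by 2.20 in Cardamonin, by 1.56 in AEG 3482 and by 0.33 in Podofilox. It measured 1.70 ± 0.138 TPM in DMSO (SD, n = 6), 11.4 ± 1.26 in Cardamonin and 6.95 ± 0.598 in AEG 3482 (SD, n = 3), and no library of the latter pair overlapped DMSO. Tmem173 (STING), which receives that messenger, fell in all 8 compounds, from 0.25 in AEG 3482 to 1.09 in Cardamonin, and by 0.54 in Antimycin A, where the RNA sensors rose. Mndal, of the Ifi200 family of DNA-binding proteins, rose by 1.51 in Antimycin A and fell by 1.86 in AEG 3482. Over the 11 genes tested, 7 rose and 1 fell in Antimycin A, and 3 rose and 5 fell in Cardamonin, with medians of 0.26 and -0.11 (all-gene medians 0.03 and 0.03). The shares of all genes higher and lower were 21.8% and 15.5% in Antimycin A, and 37.3% and 33.0% in Cardamonin.

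The other endosomal receptors of nucleic acid were low. Tlr7, which reads single-stranded RNA, reached at most 1.17 TPM and did not pass the filter, nor did Tlr8 and Tlr9. The 5 genes of this list that were tested, Unc93b1, Ticam1, Myd88, Tirap and Cnpy3, are not receptors of nucleic acid. Of them, 4 rose and 0 fell in Antimycin A, and 4 rose and 1 fell in AEG 3482. Their medians were 0.24 and 0.33 (all-gene medians 0.03 and 0.10). The shares of all genes called higher and lower were 21.8% and 15.5% in Antimycin A, and 41.3% and 26.8% in AEG 3482. Ticam1, the adaptor of Tlr3, rose by 0.43 in Antimycin A and by 0.66 in Podofilox, and differed by 0.07 in Cardamonin.

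Among 21 cofactors and kinases of RNA sensing, 6 rose and 2 fell in Antimycin A, and 11 rose and 7 fell in Cardamonin, with medians of 0.03 and 0.14 (all-gene medians 0.03 and 0.03). Over all genes tested, 21.8% rose and 15.5% fell in Antimycin A, and 37.3% rose and 33.0% fell in Cardamonin. Trim25, a ubiquitin ligase that acts on Ddx58, rose by 0.38 in Antimycin A and fell by 0.80 in Cardamonin. Ddx60, a helicase linked to RNA sensing, rose by 1.01 and fell by 2.25 in the same compounds. Tbk1, the kinase downstream of Mavs, differed by -0.02 in Antimycin A and rose by 0.30 in Cardamonin. Mlkl, the effector of necroptosis downstream of Zbp1, rose in both Antimycin A (1.06) and Cardamonin (1.05), the second against the fall of Zbp1. Adarb1, a second editing enzyme, fell by 0.91 in Cardamonin and 0.70 in AEG 3482 and rose by 1.12 in Podofilox, where Adar fell.

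**Figure D5:**
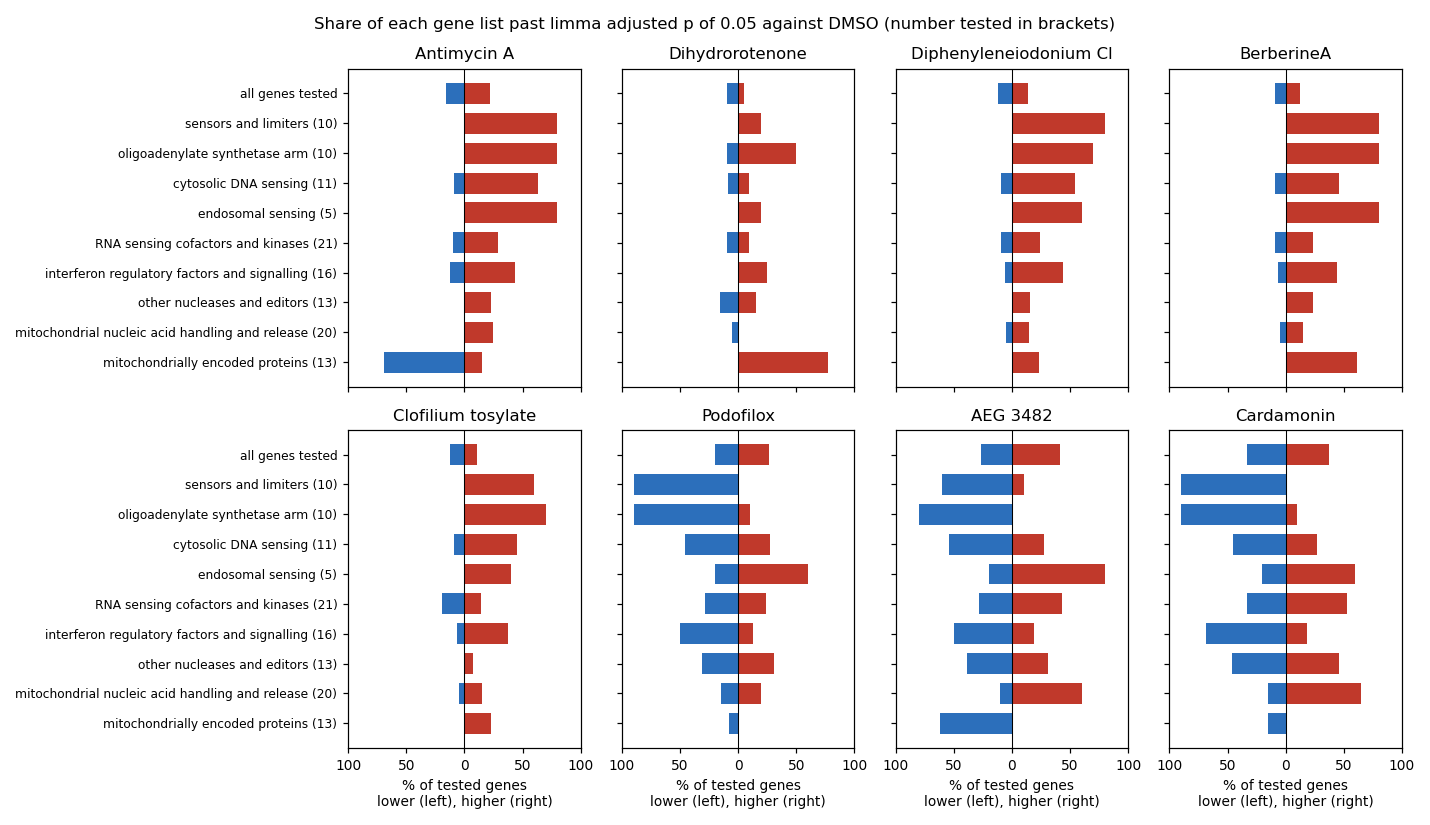
Percent of the tested genes of each list called lower (left) and higher (right) than DMSO at a limma adjusted p below 0.05, 1 panel a compound, with all 13644 genes tested as the first bar. The bars of the sensors and limiters and of the oligoadenylate synthetases point the same way within each compound, apart from small counts.

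Interferon itself was hardly seen. None of the 10 interferon genes examined reached the filter: Ifnb1 had at most 0.186 TPM and was above 0 in 6 of 30 libraries, and Ifna1 and Ifna4 were at 0 in all. The highest of the 10 was Ifne, with at most 0.689 TPM and above 0 in 13 of 30 libraries. Ifne measured 0.379 to 0.689 TPM in AEG 3482, 0.208 to 0.375 in Cardamonin and 0 in every DMSO library. Of 17 regulatory factors and signalling genes of the interferon response, 16 passed the filter, and Tyk2, at most 1.76 TPM, did not. Irf7, a factor that interferon induces, went from 61.6 ± 8.90 TPM in DMSO (SD, n = 6) to 312 ± 18.2 in Antimycin A and 8.29 ± 1.55 in Cardamonin (SD, n = 3), changes of 2.34 and -2.75. Isg15, a ubiquitin-like protein of the interferon response, rose by 1.58 and fell by 3.41 in these compounds. Irf9 and Stat2 rose by 0.65 and 0.79 in Antimycin A. In AEG 3482, where Dhx58 and Eif2ak2 also did not pass, they differed by -0.04 and -0.17 (adjusted p = 0.743 and 0.143), although Stat2 passed without DMSO replicate 6. Irf7 and Isg15 were at 0.538 and 0.443 times the DMSO mean in AEG 3482, where 8 genes of the list fell and 3 rose. The list median there was -0.28 (all-gene median 0.10), and 26.8% of all genes were lower and 41.3% higher. Of the 16 genes tested, 7 rose and 2 fell in Antimycin A, and 3 rose and 11 fell in Cardamonin, with medians of 0.30 and -0.93 (all-gene medians 0.03 and 0.03). Among all genes the shares higher and lower were 21.8% and 15.5% in Antimycin A, and 37.3% and 33.0% in Cardamonin.

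Some factors departed from this pattern. Irf1 fell by 1.55 in Cardamonin and, by 0.18, in Antimycin A, where the call was lost without any 1 of the Antimycin A libraries. Irf3, the factor directly activated through Mavs, rose in AEG 3482 by 1.17 (adjusted p = 0.00682). It scattered widely between libraries, 5.09 ± 2.19 TPM in DMSO and 12.6 ± 4.53 in AEG 3482. Its rise of 1.004 in Antimycin A was lost without Antimycin A replicate 1 or 3 or DMSO replicate 2, 3 or 4, and its rise of 0.90 in Cardamonin was lost without Cardamonin replicate 1 or 3 or the same DMSO libraries.

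Since several compounds act on mitochondria, genes for the upkeep and release of mitochondrial nucleic acid were also read. Pnpt1, which degrades mitochondrial double-stranded RNA, differed by 0.14 in Antimycin A and -0.04 in Dihydrorotenone and fell by 0.22 in Cardamonin. Tfam, which packs mitochondrial DNA, differed by 0.09 and -0.21 in the 2 respiratory inhibitors. Of the 20 genes of this list, 5 rose in Antimycin A (3 without its replicate 1), where 21.8% of all genes did, a similar share. In Cardamonin 13 rose and 3 fell, against 37.3% and 33.0% of all genes, and in AEG 3482 12 rose and 2 fell, against 41.3% and 26.8%. The medians in these 3 compounds were 0.11, 0.20 and 0.35 (all-gene medians 0.03, 0.03 and 0.10). With median-ratio scaling 5 fell in AEG 3482, and 4 with quantile normalization. Of the 13 protein-coding genes of the mitochondrial genome, 9 fell and 2 rose in Antimycin A, with mt-Cytb, a subunit of complex III, lower by 1.20, and 10 rose in Dihydrorotenone. Among all genes 15.5% fell and 21.8% rose in Antimycin A, and 4.95% rose in Dihydrorotenone. The Dihydrorotenone count ranged from 3 to 11 over the alternatives, and was 3 without its replicate 1 and 6 without DMSO replicate 5. In Antimycin A, none of the 13 rose without its replicate 1. Whether these transcripts reached the cytosol was not measured.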

How the data were processed

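The 30 libraries were described by 1 table in which the authors deposited TPM values per gene, estimated with kallisto 0.43.1 for the build mm10, per the submitters' processing notes, and gathered with tximport, per the series text. Columns summed to 927024 to 937134, not 1000000. The read depth, strand setting and doses are not given in the sources used here. Of 29861 identifiers, 98.5% matched a GENCODE M21 symbol (GRCm38), from which positions were taken.

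Values were analysed as log2(TPM + 1) with limma 3.58.1 in R 4.3.3: 13644 genes that reached 1 TPM in 3 or more libraries, 1 mean per group over all 30 libraries, empirical Bayes with an intensity trend, and Benjamini-Hochberg adjustment over all genes tested at a threshold of 0.05. The 8 compounds were each compared with DMSO, and 3 pairs of compounds directly; the fit was checked on simulated data. The series text gives 5 DMSO replicates where the labels give 6, and all 6 were used.

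The members, lists and comparisons were chosen with earlier results of these data known. All 10 members were named; from the other lists a preset group of genes was named whatever their values, with the gene changed most in a list and compound, and for each member the 2 genes with the highest Pearson correlation; some of these genes are not reported here. Alternatives changed the pseudocount, filter, scaling, moderation, samples fitted and replicate block, or left out a library. Those for genes and counts of the other lists were added after seeing the data.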

Additional observations from a re-analysis of the deposited data

Results flagged for a closer look

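A DMSO library stood apart in 2 of the 10 genes. For Zbp1, DMSO replicate 6 was at 27.1 TPM, and its gap to the nearest of the other 5 DMSO libraries was 0.727 of the group's range. For Adar, the same library was at 24.8 TPM, with a gap of 0.702 of the range. Both exceed Dixon's 95% critical value of 0.625 for 6 libraries, which chance exceeds in about 1 of 20 groups. Without that library, Clofilium tosylate raised 4 of the 10 genes, AEG 3482 lowered 7 and Podofilox lowered 8.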

How the results depend on the processing

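No fold change of the 10 genes that passed the threshold changed sign; some that did not pass, such as Tlr3 and Mavs in Antimycin A, did. Of 1989 fold changes of these genes under the alternatives, 1919 stayed on their side of the threshold, 56 no longer passed and 14 newly passed. Of 6356 for the named genes of the other lists, 6014 stayed on theirs, 290 no longer passed and 52 newly passed, and 313 of 3200 list counts moved by over 1.5 times. With only the 2 groups compared in the fit, Dihydrorotenone changed 1 of the 10 genes and Clofilium tosylate 3; fewer samples then set the spread. With 1 library left out, the counts ran from 1 to 2 in Dihydrorotenone and from 3 to 6 in Clofilium tosylate. Over all genes, Dihydrorotenone against DMSO gave 898 calls with only those groups and 1233 or 1266 without its replicate 1 or 2 (1963 with all), and Diphenyleneiodonium Cl against Dihydrorotenone gave 305 with only those groups and 235 to 318 without any 1 of their libraries except Dihydrorotenone replicate 2 (502 with all). The cause of these shifts was not tested. Same-numbered replicates did not deviate together (median correlation 0.0071 over 108 pairs, from -0.107 to 0.151). No pairing by number was seen, but this check cannot show that the libraries were handled separately. With the replicate block, the genes called of the 10 were 8 in Antimycin A, 2 in Dihydrorotenone, 8 in Diphenyleneiodonium Cl, 9 in Cardamonin, 8 in BerberineA, 4 in Clofilium tosylate, 7 in AEG 3482 and 8 in Podofilox, and 8, 7 and 9 in the direct contrasts in the order given above. The filter at a mean of 5 TPM left out Tlr3. Depth is unknown in TPM, so the counting error of low genes such as Tlr3 cannot be given.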
